A study of Rattus norvegicus with 16 samples.

Results

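The genes described here encode the transcription factors of the AP-1 and early growth response (EGR) families, together with the immediate early gene Ier3. They are Fos, Fosb, Fosl1, Fosl2, Jun, Junb, Jund, Egr1, Egr2 and Ier3. They were chosen by name, as the genes of the deposited count table whose symbol is one of these 10. Earlier results of these data were known when the 10 were chosen. All 10 were found among the 32623 genes of the table, and all 10 passed the filter on low counts in every comparison.

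The study asked how an acidic medium changes gene expression in rat kidney epithelial cells and fibroblasts that share their medium. NRK-52E is an epithelial line from normal rat kidney, described by the submitters as derived from the proximal tubule, and it was grown on permeable filter inserts. The fibroblast line NRK-49F, also from the kidney of a normal rat, was grown in the wells of 6-well plates under those inserts. The growth surface therefore goes with the cell line, and the 2 cannot be told apart. Both lines were grown in DMEM with 5% FCS and were put together once confluent. They were then held together for 24 h in medium without added FCS, and for a further 48 h at pH 7.4 or pH 6.0. The sample labels write these as pH7 and pH6. Poly(A)-enriched RNA of each line was sequenced separately in 4 libraries per cell line and pH, named N1 to N16. N1, N2, N5 and N6 are NRK-52E at pH 7.4, and N3, N4, N7 and N8 are NRK-52E at pH 6.0. N9, N10, N13 and N14 are NRK-49F at pH 7.4, and N11, N12, N15 and N16 are NRK-49F at pH 6.0. Between 16201084 (N12) and 34784862 (N16) fragments per library were counted on genes. Nothing in the labels says that the 4 libraries of a group came from separate cultures, so the p-values measure the spread among these libraries only. Levels are given as fragments per 1000000 counted fragments (FPM) after TMM normalization over the 16 libraries. They are not corrected for gene length, so the ranks and sums over marker genes given below are of fragments and not of transcripts.

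The cell types of the labels were checked against marker genes. Of 14 epithelial markers, Ocln (41.2 FPM), Krt7 (36.7 FPM) and Cdh1 (1.62 FPM) were present in NRK-52E at pH 7.4, and they had mean levels of 0, 0.463 and 0 FPM in NRK-49F at that pH. At pH 6.0 they had 0.0991, 0.0768 and 0.23 FPM there. Ocln (9.67 FPM) and Krt7 were still higher in NRK-52E at pH 6.0, while Cdh1 (0.315 FPM) was low and close in both. Krt8 had the most fragments of the epithelial markers in both lines, with 430 FPM in NRK-52E and 848 FPM in NRK-49F at pH 7.4. Esrp1 was at 0 in all libraries, and Epcam, Krt18 and Cldn7 stayed below 0.15 FPM in every group mean. At pH 7.4 Krt19 had 2.49 FPM in NRK-52E and 2.27 FPM in NRK-49F. Pax8 (0.771 against 0.0102 FPM) and Esrp2 (0.259 against 0.0932 FPM) were low but higher in NRK-49F at that pH. Grhl2 was low and higher in NRK-52E (0.285 against 0.0889 FPM). The epithelial label of NRK-52E thus rests on part of the list. Of 7 proximal tubule markers, Aqp1 had the most fragments in NRK-52E (34.4 FPM at pH 7.4), and Slc34a1 was at 0 in all NRK-52E libraries. Aqp1 had 21.8 FPM in NRK-49F at pH 7.4, and 26.4 FPM in NRK-52E and 41.6 FPM in NRK-49F at pH 6.0. At pH 7.4, Ggt1 (112 against 1.53 FPM) and Cubn (2.54 against 0.804 FPM) were higher in NRK-49F. Lrp2 was higher in NRK-52E (0.634 against 0.0126 FPM). The proximal tubule list therefore did not set NRK-52E apart. Among 10 fibroblast markers, Col1a1 (6210 FPM), S100a4 (2250 FPM) and Pdgfra (392 FPM) were high in NRK-49F at pH 7.4, against 23.6, 37.5 and 0.286 FPM in NRK-52E. Col3a1 went the other way, with 6220 FPM in NRK-52E and 458 FPM in NRK-49F, and Thy1 was at 0 in all 16 libraries. The summed level of the epithelial list, most of which is Krt8 in every library, was lower at pH 6.0 in both lines. Krt8 itself went to 316 and 206 FPM. The sum was 470.5 to 542.1 FPM at pH 7.4 and 311.4 to 377.4 FPM at pH 6.0 in NRK-52E, and 786.6 to 950.9 FPM and 200.7 to 220.8 FPM in NRK-49F. The summed fibroblast list was 6240 to 6490 FPM at pH 7.4 and 1877 to 3227 FPM at pH 6.0 in NRK-52E, while it was 9245 to 9806 FPM and 8577 to 10070 FPM in NRK-49F. The NRK-52E sum is mostly Col3a1, which went to 2630 FPM, and the NRK-49F sum is mostly Col1a1, which went to 8290 FPM. Other fibroblast markers had lower means at pH 6.0 in NRK-49F, among them S100a4 (628 FPM), Col3a1 (53.9 FPM), Pdgfrb (87.2 to 21.8 FPM) and Lum (8.27 to 1.92 FPM). The part of these shifts in the results that follow was not tested.

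AP-1 is a dimer of basic leucine zipper (bZIP) proteins. FOS proteins pair with JUN proteins, JUN proteins also pair with each other, and the dimers bind the palindromic elements known as TRE and CRE. EGR1 and EGR2 are zinc finger factors that bind GC-rich sites. Most of these genes are immediate early genes, which are transcribed within minutes after growth factors, stress or injury and whose mRNAs are short-lived, and in kidney tubule cells and fibroblasts they are widely used as markers of such stimuli. The libraries here were taken after 48 h, so they hold the late levels and not the first response.

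A gene was called when its false discovery rate (FDR, Benjamini-Hochberg) was below 0.01 in both edgeR's quasi-likelihood test and DESeq2. In NRK-52E cells, pH 6.0 changed 7 of the 10 genes, against 56.7% of all tested genes. Fosl1, Jund and Egr1 were higher (3 genes, with 28.2% of all tested genes higher), and Fosl2, Jun, Junb and Egr2 were lower (4 genes, with 28.5% lower). With library totals in place of TMM, Fosl1 and Egr1 were no longer called and Fos was called lower, which left 1 gene higher and 5 lower. In NRK-49F cells, Fosl1, Fosl2, Egr1 and Ier3 were called, and all of these 4 were higher at pH 6.0. Over all genes, 37.8% were called in NRK-49F, 18.4% higher and 19.4% lower. The shares called in total within each line were thus not far from those of all genes. By direction they were further apart in NRK-49F, where 4 of the 10 genes were higher (18.4% of all genes) and 0 lower (19.4%). At an FDR below 0.05, Fosb and Jun were also called higher there, and Jund was called lower. The 10 genes were chosen with earlier results of these data known, so their shares beside those of all genes are descriptions only. The median over the 10 genes was a log2 change of -0.13 for NRK-52E and of 0.89 for NRK-49F, beside medians over all tested genes of 0.00136 and -0.0029. Between the pH effects of the 2 lines, tested as an interaction in edgeR over all 16 libraries, a difference was called for 7 of the 10 genes, against 37.0% of all genes. The effect was more positive in NRK-52E for Jund (1 gene, 19.4% of all genes) and more positive in NRK-49F for Fosl1, Fosl2, Jun, Junb, Egr2 and Ier3 (6 genes, 17.6% of all genes). Scaling by library totals moved the median of all genes to -0.21 in NRK-52E, to -0.25 in the interaction and, most of all, from 0.0289 to 0.335 between the lines at pH 7.4, so each change is relative to the other genes of the same libraries. Since the RNA is bulk RNA, fewer cells that express a gene and less RNA per cell cannot be told apart.

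Between the lines at pH 7.4, 7 of the 10 genes differed, against 66.6% of all genes. Fos, Fosl2 and Junb were higher in NRK-52E (3 genes, 33.3% of all genes), and Fosl1, Jun, Jund and Egr1 were higher in NRK-49F (4 genes, 33.3% of all genes). At pH 6.0, 8 of the 10 differed, against 59.8% of all genes. Only Fos and Jund were then called higher in NRK-52E (2 genes, 28.6% of all genes), and Fosl1, Jun, Junb, Egr1, Egr2 and Ier3 were higher in NRK-49F (6 genes, 31.3% of all genes). With library totals, 65.7% of the genes called at pH 7.4 were higher in NRK-52E (50% with TMM), the Junb call at pH 6.0 was lost and the Jund difference at pH 7.4 had the opposite sign. Fosl2 was called between the lines at pH 7.4 and not at pH 6.0. With TMM, Junb and Jund each changed sides from one pH to the other. The Junb call at pH 6.0 and the Jund call at pH 7.4 were also lost in fits with 1 library left out, so these changes of side are weak.

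**Figure D1:**
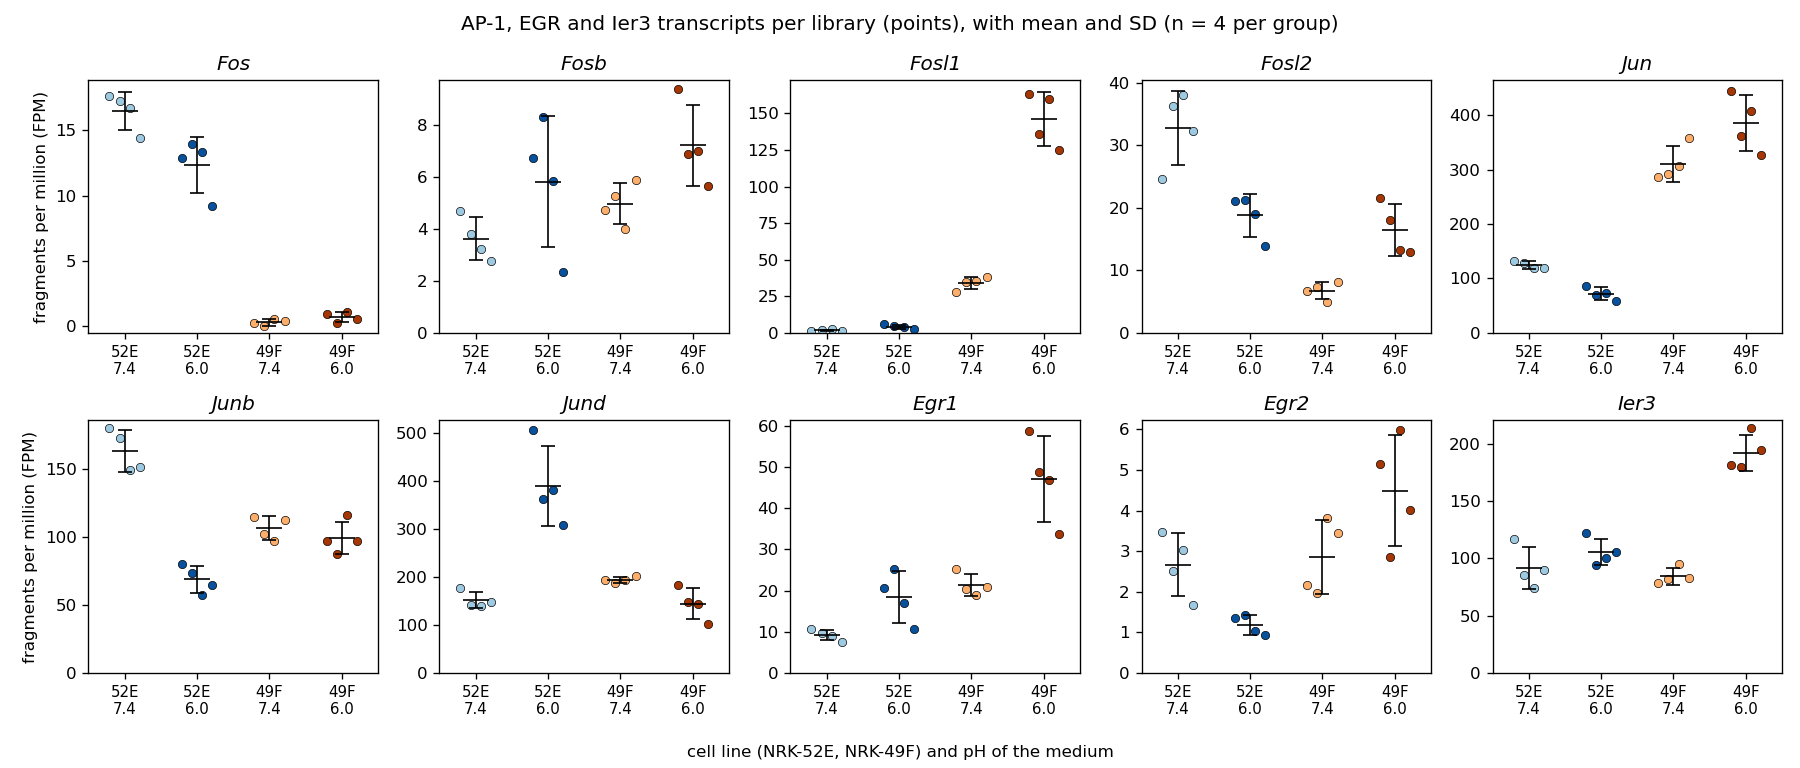
Level of each of the 10 genes in fragments per 1000000 (FPM, linear axis, a separate scale for each gene) in the 4 groups of cell line and pH. Points are the 16 libraries, and bars are the mean and SD of 4 libraries. Fosl1 in NRK-49F moved from a mean of 34.2 FPM at pH 7.4 to 146 FPM at pH 6.0, and Jund in NRK-52E from 151 to 389 FPM.

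Fos (ENSRNOG00000008015, chromosome 6), the founding member of the family and the classic immediate early gene, was far higher in NRK-52E than in NRK-49F. In NRK-52E it had 17.6, 17.2, 16.7 and 14.4 FPM in N1, N2, N5 and N6 at pH 7.4, and 12.8, 13.9, 13.3 and 9.21 FPM in N3, N4, N7 and N8 at pH 6.0. All values at pH 6.0 were below all values at pH 7.4, with N8 the lowest. The means were 16.48 ± 1.45 and 12.3 ± 2.12 FPM (SD, n = 4). The log2 fold change of -0.44 ± 0.15 (SE) had an FDR of 0.0224 in edgeR and 0.0124 in DESeq2, so Fos was not called in NRK-52E. With scaling by library totals alone it passed (log2 fold change -0.65). In NRK-49F at pH 7.4 it had 0.229, 0, 0.527 and 0.435 FPM in N9, N10, N13 and N14, from 4, 0, 8 and 11 fragments. The 0 in N10 allows a level of up to 0.152 FPM, at 3 fragments. At pH 6.0 it had 0.974, 0.265, 1.10 and 0.594 FPM in N11, N12, N15 and N16, from 22, 4, 34 and 19 fragments. The 2 pH groups of NRK-49F overlapped, and the log2 fold change of 1.33 ± 0.63 was not called (edgeR FDR 0.0938). Between the lines no library overlapped. The difference on the log2 scale was 5.86 ± 0.36 at pH 7.4 and 3.99 ± 0.33 at pH 6.0, called at both (edgeR FDR 4.35e-08 and 4.26e-07). The interaction of -1.80 ± 0.56 missed the threshold (edgeR FDR 0.0128). It passed in DESeq2 alone, with library totals, without the filter on low counts, and when N12 (-2.01) or N13 (-2.12) was left out.

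Fosb (ENSRNOG00000046667, chromosome 1), which encodes a further FOS partner of JUN, was called in none of the 4 comparisons of 2 groups and not in the interaction. Its mean levels ran from 3.62 ± 0.83 FPM in NRK-52E at pH 7.4 through 4.98 ± 0.79 in NRK-49F at pH 7.4 and 5.81 ± 2.523 in NRK-52E at pH 6.0 to 7.23 ± 1.56 in NRK-49F at pH 6.0. Neighbours in this order overlapped. The widest spread was in NRK-52E at pH 6.0, where N3, N4 and N7 had 6.73, 8.32 and 5.86 FPM and N8 had 2.35 FPM, below all 4 libraries at pH 7.4 (2.76 to 4.68 FPM). With all libraries the log2 fold change in NRK-52E was 0.66 ± 0.33 (edgeR FDR 0.0983). Without N8 it was 0.92, and Fosb was then called (edgeR FDR 0.00201).

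Fosl1 (ENSRNOG00000020552, chromosome 1), which encodes FRA-1, a FOS protein without the transactivation domain of FOS, was higher in NRK-49F and had the largest pH effect of the 10 genes in that line. In NRK-49F it had 28.1, 34.8, 35.4 and 38.5 FPM in N9, N10, N13 and N14 at pH 7.4, and 164, 136, 160 and 125 FPM in N11, N12, N15 and N16 at pH 6.0. Every library at pH 6.0 was above every library at pH 7.4, by more than the spread within either group. The mean level was 4.27 times higher, and the log2 fold change was 2.08 ± 0.12 (edgeR FDR 1.68e-07, DESeq2 FDR 6.6e-52). An exact two-sided permutation test gave p = 0.0286, and no smaller p is possible with 4 libraries on each side. In NRK-52E it had 1.45, 1.97, 2.45 and 1.62 FPM in N1, N2, N5 and N6 and 5.87, 4.41, 3.81 and 2.44 FPM in N3, N4, N7 and N8. The groups touched, since N8 at pH 6.0 and N5 at pH 7.4 had nearly the same level. The log2 fold change in NRK-52E was 1.11 ± 0.29 (edgeR FDR 0.00586). That call was lost when N1, N2, N3, N4, N6 or N7 was left out, with log2 fold changes between 0.89 and 1.16 and edgeR FDRs between 0.0104 and 0.0229, and with library totals (0.89). The level was lower in NRK-52E than in NRK-49F by a log2 difference of -4.10 ± 0.18 at pH 7.4 and -5.17 ± 0.23 at pH 6.0. The rise was larger in NRK-49F, with an interaction of -0.995 ± 0.29 (edgeR FDR 0.00789). That call was lost when N2, N5, N7, N9, N10, N11, N12, N13 or N15 was left out, with values between -1.03 and -0.84. The 4 levels thus ran from NRK-52E at pH 7.4 through NRK-52E at pH 6.0 and NRK-49F at pH 7.4 to NRK-49F at pH 6.0, and the first 2 overlapped.

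Fosl2 (ENSRNOG00000052357, chromosome 6), which encodes FRA-2, moved in opposite directions in the 2 lines. In NRK-52E it fell, from 24.6, 36.3, 38.1 and 32.2 FPM in N1, N2, N5 and N6 to 21.1, 21.3, 19.0 and 13.9 FPM in N3, N4, N7 and N8. In NRK-49F it rose, from 6.69, 7.33, 4.94 and 8.14 FPM in N9, N10, N13 and N14 to 21.6, 18.1, 13.2 and 12.98 FPM in N11, N12, N15 and N16. In neither line did the pH groups overlap, although N1 came near to the libraries at pH 6.0. In NRK-52E the log2 fold change was -0.83 ± 0.17 (edgeR FDR 0.00153), in NRK-49F it was 1.26 ± 0.21 (edgeR FDR 0.000331), and the interaction was -2.09 ± 0.28 (edgeR FDR 1.04e-05). At pH 7.4 the level was higher in NRK-52E by 2.35 ± 0.18 on the log2 scale, while at pH 6.0 the lines overlapped and the difference of 0.18 ± 0.21 was not called (edgeR FDR 0.459). In order, NRK-52E at pH 7.4 was highest, NRK-52E and NRK-49F at pH 6.0 did not differ beyond their spread, and NRK-49F at pH 7.4 was lowest.

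Jun (ENSRNOG00000026293, chromosome 5), the prototype of the JUN proteins, was higher in NRK-49F at both pH values. In NRK-52E it had 132, 129, 119 and 120 FPM in N1, N2, N5 and N6 at pH 7.4, and 86.6, 70.3, 72.5 and 59.1 FPM in N3, N4, N7 and N8 at pH 6.0. The groups were far apart, and the log2 fold change was -0.81 ± 0.11 (edgeR FDR 8.33e-05, DESeq2 FDR 5.26e-09). In NRK-49F it had 286, 291, 306 and 358 FPM in N9, N10, N13 and N14 and 445, 362, 408 and 327 FPM in N11, N12, N15 and N16. These groups overlapped, N14 being above N16, and the log2 fold change of 0.30 ± 0.11 was not called (edgeR FDR 0.0435). The interaction was -1.12 ± 0.17 (edgeR FDR 2.79e-05). The difference between the lines was -1.23 ± 0.09 at pH 7.4 and -2.43 ± 0.15 at pH 6.0, so it was wider in the acidic medium. The order of the levels was NRK-52E at pH 6.0, NRK-52E at pH 7.4, then NRK-49F at pH 7.4 and pH 6.0, and only the last 2 overlapped.

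Junb (ENSRNOG00000042838, chromosome 19), which forms AP-1 dimers that activate transcription less than those of JUN at many promoters, had the largest fall of the 10 genes in NRK-52E. Its levels were 180, 173, 149 and 152 FPM in N1, N2, N5 and N6 at pH 7.4 and 79.9, 73.5, 57.4 and 64.3 FPM in N3, N4, N7 and N8 at pH 6.0. The lowest library at pH 7.4 was still far above the highest at pH 6.0, with a log2 fold change of -1.26 ± 0.12 (edgeR FDR 4.6e-06, DESeq2 FDR 4.2e-19). In NRK-49F the level was 115, 102, 96.7 and 112 FPM in N9, N10, N13 and N14 and 96.8, 87.7, 116 and 96.8 FPM in N11, N12, N15 and N16. The 2 groups overlapped through most of their range, with a log2 fold change of -0.12 ± 0.10 (edgeR FDR 0.33). The interaction of -1.16 ± 0.16 was called (edgeR FDR 1.18e-05). At pH 7.4 Junb was higher in NRK-52E by 0.70 ± 0.08, and at pH 6.0 it was lower there by a log2 difference of -0.54 ± 0.13. The second of these calls was lost when N7 (-0.44) or N15 (-0.48) was left out. From high to low, NRK-52E at pH 7.4 came first, the NRK-49F groups lay between and overlapped, and NRK-52E at pH 6.0 came last.

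Jund (ENSRNOG00000019568, chromosome 16), the JUN gene known for steady expression in resting cells, went the opposite way from Jun and Junb in NRK-52E. It had 176, 141, 140 and 147 FPM in N1, N2, N5 and N6 at pH 7.4 and 506, 361, 381 and 308 FPM in N3, N4, N7 and N8 at pH 6.0. The groups were far apart, and N3 was the highest of all 16 libraries. The mean level was 2.58 times higher at pH 6.0 and the log2 fold change was 1.35 ± 0.15 (edgeR FDR 1.45e-05, DESeq2 FDR 1.26e-14). In NRK-49F it had 194, 187, 194 and 202 FPM in N9, N10, N13 and N14 and 182, 148, 143 and 103 FPM in N11, N12, N15 and N16. All 4 libraries at pH 6.0 were below those at pH 7.4, N11 by little. The log2 fold change of -0.45 ± 0.14 was not called (edgeR FDR 0.02, DESeq2 FDR 0.0132), and it was called when N11 was left out (-0.58, edgeR FDR 0.00306). The interaction was 1.78 ± 0.22 (edgeR FDR 3.51e-06), the only positive one called among the 10 genes. At pH 6.0 the level was higher in NRK-52E by 1.42 ± 0.19. At pH 7.4 it was lower there by a log2 difference of -0.28 ± 0.08. That call was lost without N2, N5, N6, N9, N10, N13 or N14, with values between -0.30 and -0.25, and in 1 fit of all 16 libraries (-0.36, edgeR FDR 0.043). With library totals the difference was 0.03. From high to low the order was NRK-52E at pH 6.0, NRK-49F at pH 7.4, then NRK-52E at pH 7.4 and NRK-49F at pH 6.0, and the last 2 overlapped.

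Egr1 (ENSRNOG00000019422, chromosome 18), a zinc finger factor induced through serum response elements, rose in both lines. In NRK-49F it had 25.2, 20.4, 18.8 and 20.9 FPM in N9, N10, N13 and N14 at pH 7.4 and 58.9, 48.9, 47.0 and 33.7 FPM in N11, N12, N15 and N16 at pH 6.0. The groups did not overlap, with a log2 fold change of 1.13 ± 0.16 (edgeR FDR 0.000107). In NRK-52E it had 10.6, 9.67, 8.91 and 7.57 FPM in N1, N2, N5 and N6 and 20.7, 25.4, 17.1 and 10.6 FPM in N3, N4, N7 and N8. N8 was level with N1, so the groups touched, while N3, N4 and N7 lay well above. The log2 fold change was 0.98 ± 0.23 (edgeR FDR 0.00334). The call was lost when N3, N4, N5 or N6 was left out (0.78 to 0.94, edgeR FDR 0.0108 to 0.0164) and with library totals (0.78). No difference between the lines in the size of the rise was called, with an interaction of -0.16 ± 0.30 (edgeR FDR 0.696). Egr1 was lower in NRK-52E at both pH values, by a log2 difference of -1.13 ± 0.13 at pH 7.4 and -1.37 ± 0.24 at pH 6.0. NRK-49F at pH 6.0 was thus the highest group and NRK-52E at pH 7.4 the lowest, and NRK-49F at pH 7.4 and NRK-52E at pH 6.0 overlapped between them.

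Egr2 (ENSRNOG00000000640, chromosome 20), best known for its role in myelinating Schwann cells, was a rare transcript, with 20 to 184 fragments per library. In NRK-52E it had 3.47, 2.50, 3.03 and 1.67 FPM in N1, N2, N5 and N6 at pH 7.4 and 1.35, 1.44, 1.02 and 0.94 FPM in N3, N4, N7 and N8 at pH 6.0. The groups did not overlap, though N6 was close to N4. The log2 fold change was -1.19 ± 0.28 (edgeR FDR 0.00304). It was no longer called without N1 (-1.05), N5 (-1.14) or N7 (-1.11). In NRK-49F it ranged from 1.97 to 3.82 FPM at pH 7.4 and from 2.85 to 5.98 FPM at pH 6.0, with a log2 fold change of 0.65 ± 0.28 that was not called (edgeR FDR 0.0709). The interaction was -1.86 ± 0.42 (edgeR FDR 0.00131). The difference between the lines at pH 7.4 was not called (-0.01 ± 0.28, edgeR FDR 0.968), and at pH 6.0 Egr2 was lower in NRK-52E by a log2 difference of -1.94 ± 0.30 (edgeR FDR 8.74e-05). Only NRK-52E at pH 6.0 stood apart from its neighbour in the order of the levels.

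Ier3 (ENSRNOG00000000827, chromosome 20), an immediate early gene whose product acts on cell survival, rose in NRK-49F. There it had 78.0, 81.7, 95.0 and 82.8 FPM in N9, N10, N13 and N14 at pH 7.4 and 181, 180, 214 and 194 FPM in N11, N12, N15 and N16 at pH 6.0. The spread within each group was small beside the distance between them, and the log2 fold change was 1.17 ± 0.10 (edgeR FDR 1.6e-06, DESeq2 FDR 3.9e-29). In NRK-52E it ranged from 74.2 to 117 FPM at pH 7.4 and from 94.4 to 122 FPM at pH 6.0, and the log2 fold change of 0.19 ± 0.14 was not called (edgeR FDR 0.238) and was -0.02 with library totals. The interaction was -0.997 ± 0.17 (edgeR FDR 0.00012). At pH 7.4 the lines overlapped (0.20 ± 0.12, edgeR FDR 0.166), although with library totals the difference was 0.50 and called (edgeR FDR 0.00161), and at pH 6.0 the level was lower in NRK-52E by a log2 difference of -0.88 ± 0.11. NRK-49F at pH 6.0 was the highest group, and the other 3 overlapped in turn.

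**Figure D2:**
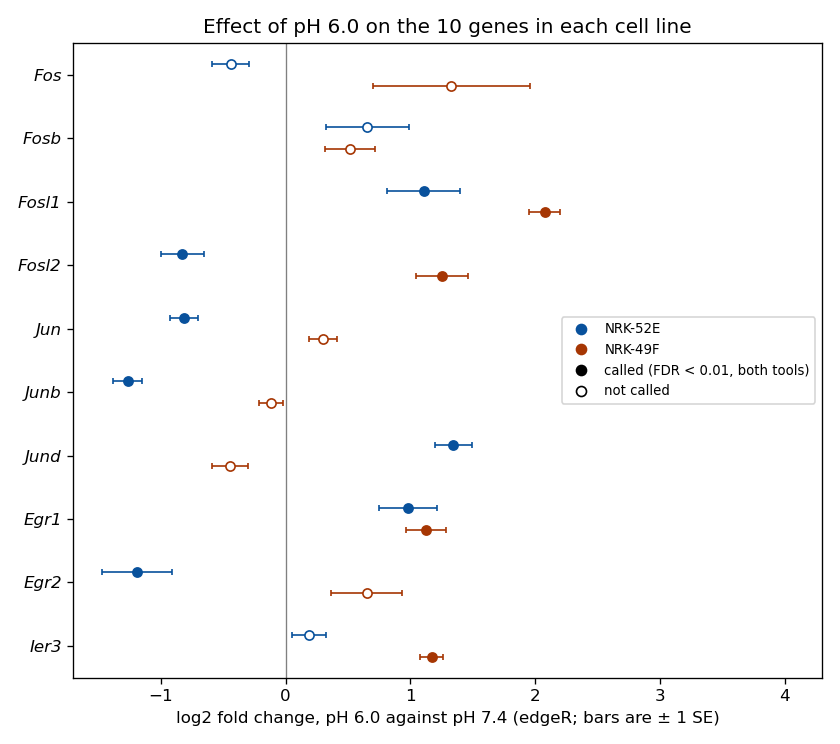
edgeR log2 fold change of pH 6.0 against pH 7.4 for the 10 genes in NRK-52E (blue) and NRK-49F (brown), with bars of 1 SE, from 4 against 4 libraries. Filled points were called in both tools and open points were not. Fosl2 lies on opposite sides of 0 in the 2 lines (-0.83 and 1.26), and Egr1 is at nearly the same place in both (0.98 and 1.13).

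Some libraries were high or low for several of these genes. In NRK-52E at pH 6.0, N8 was the lowest of the 4 libraries for 8 of the 10 genes, and over the 13105 genes with a mean of at least 1 FPM it was the lowest for 34.7%. N8 was also the highest for 38.5% of those genes, but for 0 of the 10. In NRK-52E at pH 7.4, N1 was the highest for 8 of the 10 genes, against 40.6% of all those genes. In NRK-49F at pH 6.0, N11 was the highest for 6 of the 10 (27.6%) and N16 the lowest for 6 (27.9%). N16 was the highest for 0 of the 10, against 34.4% of all those genes. Without N8, 8 of the 10 genes were called in NRK-52E, and without any other single library 5 or 6 were. In NRK-49F, 4 were called without any single library other than N11, and 5 without N11.

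The column names of the count table carry a second number whose meaning is not given, which is 21 or 22 in the NRK-52E columns and 20 or 21 in the others. Within a line each number holds 2 libraries at each pH, and number 21 occurs in both lines. Within 1 number the test sets 2 libraries against 2 and was run in edgeR alone. Within number 21 of NRK-52E the changes were 1.53 for Fosl1, -0.57 for Fosl2, -0.77 for Jun, -1.24 for Junb, 1.41 for Jund, 1.15 for Egr1 and -1.13 for Egr2 on the log2 scale, and Fosl2 and Egr2 were not called. Within number 22 they were 0.59, -1.12, -0.88, -1.32, 1.24, 0.72 and -1.28, and Jun, Junb and Jund were called. Each of these 7 genes had the same sign within both numbers. The numbers split the same libraries that gave the calls, so the shared sign is no separate support for them. In NRK-49F, the changes within numbers 20 and 21 were 2.25 and 1.93 for Fosl1, 1.51 and 0.97 for Fosl2, 1.25 and 0.996 for Egr1 and 1.18 and 1.18 for Ier3, and of these only Fosl2 in number 21 was not called. Jun, not called in NRK-49F with all libraries (0.30), was called within number 20 (0.49, edgeR FDR 0.00253). With the number as a covariate, 7 and 4 genes were called, as many as without it.

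For each gene, the genes with the most similar profile over the 16 libraries were looked up among 11423 tested genes that have a mean of at least 1 FPM and a gene name other than a clone or locus number, by the root mean square difference of centred log2(FPM + 1) values. The nearest to Fosl1 was Hmga1, a chromatin architectural gene, at 0.271, where Fosl1 itself varied with an SD of 2.28. Hmga1 rose as well, by 1.01 ± 0.19 in the epithelial cells and by 1.72 ± 0.16 in the fibroblasts. The nearest to Fosl2 was Ptprf, a receptor tyrosine phosphatase, at 0.272, which likewise fell in NRK-52E (-0.83 ± 0.12) and rose in NRK-49F (0.94 ± 0.10). Jun was nearest to the integrin gene Itga3 (0.166), Junb to Gtf2i (0.152), a transcription factor gene, and Jund to the chaperone gene Dnajc1 (0.175). Ier3 was nearest to the glucose transporter gene Slc2a1 (0.173), which rose in NRK-49F by 1.31 ± 0.12. Fos was nearest to Serinc5 (0.233), Fosb to Cep164 (0.224), Egr1 to Smarcc1 (0.284) and Egr2 to Gaa (0.254). Own SDs were 1.71 for Fos, 0.986 for Jun, 0.842 for Egr1, 0.799 for Fosl2 and 0.604 for Jund. They were smaller for Egr2 (0.536), Ier3 (0.489), Junb (0.462) and Fosb (0.445). Beside these, the distances of Fosb and Egr2 are a looser match than that of Fosl1. The second in line were Rnf43 for Fos, Rrbp1 for Fosb, Evi2a for Fosl1, Ttll4 for Fosl2, Bbs1 for Jun, Ephb4 for Junb, Adprhl2 for Jund, Pvr for Egr1, Hgh1 for Egr2 and Mad2l1 for Ier3. These are descriptions of the profiles, with no test, and similar pH changes in a neighbour follow from how it was picked.

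The set of promoter sequences used here (RefSeq, rat build GRCr8) held 7 of the 10 genes, namely Fosb, Fosl1, Fosl2, Junb, Jund, Egr1 and Egr2. Those of Fos, Jun and Ier3 were not in the set and were not searched. The 250 bases before each start were searched on both strands for the elements that this family binds or is controlled by. The CArG box, the element bound by serum response factor, was found in 1.5% of 33469 promoters of this length, the CRE (TGACGTCA) in 1.59%, the TRE (TGACTCA) in 4.05%, and the EGR sites GCGTGGGCG and GCGGGGGCG in 0.478% and 2.45%. Fosl1 and Junb held none of them. Fosb held none either, but its stretch lies inside a longer gene model. The promoters of 3 genes are shown because they hold a match and belong to genes with unlike responses, Egr1 rising in both lines, Jund rising in NRK-52E and Fosl2 moving in opposite directions. The capitals mark the matches, which do not overlap each other. They are 2 CArG boxes in Egr1, a CRE and the EGR site GCGTGGGCG in Jund, and the EGR site GCGGGGGCG in Fosl2. The Egr1 stretch is chr18:26736828-26737077 on the plus strand, that of Jund chr16:18769772-18770021 on the minus strand and that of Fosl2 chr6:30039270-30039519 on the minus strand, each directly upstream of the annotated gene.
Egr1: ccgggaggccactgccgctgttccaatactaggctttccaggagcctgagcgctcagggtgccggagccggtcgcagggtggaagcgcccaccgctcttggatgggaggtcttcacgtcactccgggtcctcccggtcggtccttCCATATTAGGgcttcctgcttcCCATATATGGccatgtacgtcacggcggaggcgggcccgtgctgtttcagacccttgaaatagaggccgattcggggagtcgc
Jund: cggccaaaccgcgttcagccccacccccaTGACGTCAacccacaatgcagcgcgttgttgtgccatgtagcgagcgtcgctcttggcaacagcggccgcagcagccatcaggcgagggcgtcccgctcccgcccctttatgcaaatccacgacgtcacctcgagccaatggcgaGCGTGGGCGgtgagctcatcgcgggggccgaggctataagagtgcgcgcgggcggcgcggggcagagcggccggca
Fosl2: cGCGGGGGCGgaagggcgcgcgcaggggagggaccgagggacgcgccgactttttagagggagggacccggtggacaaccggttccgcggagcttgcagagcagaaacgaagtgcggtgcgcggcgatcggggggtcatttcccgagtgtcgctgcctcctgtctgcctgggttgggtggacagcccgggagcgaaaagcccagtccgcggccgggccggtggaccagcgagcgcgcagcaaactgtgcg
Egr2 also holds a CArG box, 83 bases before the start in the table. A longer gene model covers that place, so the box with its flanks (chr20:21054505-21054534, minus strand) is given alone.
Egr2: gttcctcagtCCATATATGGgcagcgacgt
A match is a description of the letters, and binding was not measured here.

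The partners of AP-1 among other bZIP genes were compared as a list of 12, of which 8 passed the filter in NRK-52E, and 9 passed it in NRK-49F. In NRK-52E, 4 were higher and 2 lower at pH 6.0, and in NRK-49F 3 and 3, with medians of 0.998 and 0.50 on the log2 scale. Over all tested genes 56.7% and 37.8% were called, with the medians given above, and these shares and medians stand beside the counts of every list. Atf3, a stress-induced factor that dimerizes with JUN proteins, had the largest rise of the list in both lines. Its mean level in NRK-52E went from 2.51 ± 0.88 to 64.5 ± 28.3 FPM, and that in NRK-49F from 1.32 ± 0.51 to 9.27 ± 0.89 FPM, with log2 fold changes of 4.66 ± 0.37 and 2.79 ± 0.27. Maff, a small MAF protein without a transactivation domain, rose by 2.54 ± 0.15 and 0.97 ± 0.13. Jdp2, a repressor that pairs with JUN, rose in NRK-52E (1.06 ± 0.14) and fell in NRK-49F (-0.87 ± 0.13), and Mafk did likewise (0.94 ± 0.17 and -0.46 ± 0.12), its call in NRK-49F being lost without N9, N10, N12, N14, N15 or N16 (-0.49 to -0.37). It was also lost with library totals (-0.41), DESeq2's size factors (-0.45), a filter at 1 CPM (-0.44) and 1 fit of all 16 libraries (-0.46). Mafg rose in NRK-49F (0.93 ± 0.21) and was not called in NRK-52E (1.10 ± 0.34, edgeR FDR 0.015), and its call in NRK-49F was lost in 1 fit of all 16 libraries (0.93). The interaction was called for Atf3 (1.87), Maff (1.56), Jdp2 (1.91) and Mafk (1.39), and that of Atf3 was lost without N3 (1.46) or N14 (1.65). It was not called for Mafg (0.17) or Atf7 (-0.84). Atf7 was lower in NRK-52E (-0.77 ± 0.21), a call lost without N2, N3, N5, N6, N7 or N8 (-0.79 to -0.64) and with the second number of the column names as a covariate (-0.79, edgeR FDR 0.0118). Maf fell in NRK-49F from 27.5 ± 6.62 to 11.2 ± 1.12 FPM (-1.31 ± 0.17). In NRK-52E it was at 0.854 ± 0.189 FPM at pH 7.4 and at 0 in all 4 libraries at pH 6.0, which is at least 5.87-fold lower, taking 3 fragments per library as the floor. The median of the list in NRK-52E was the same with Maf at that bound.

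Of the other EGR genes and the NAB corepressors, which bind EGR proteins and restrain them, 3 of 4 were tested in each line, Egr4 being too low. In NRK-52E only Nab1 was called, 1 of 3, with a log2 fold change of 0.41 ± 0.11. That call was lost without any one of N1 to N7 (0.35 to 0.42), with library totals (0.21), without the filter on low counts (0.39) and with the second number of the column names as a covariate (0.41, edgeR FDR 0.0109). In NRK-49F 2 of 3 were called, Nab2 (0.57 ± 0.12), itself a target of EGR1, and Egr3 (1.12 ± 0.28). Egr3 had 1.47 ± 0.32 FPM at pH 7.4 and 3.24 ± 0.92 FPM at pH 6.0, and its call was lost without N9, N12, N13, N14, N15 or N16 (0.96 to 1.12). In NRK-52E the change of Egr3 was -0.75 ± 0.28 (edgeR FDR 0.0363), and the interaction was called (-1.88 ± 0.40). It was not called for Nab1 (0.41) or Nab2 (-0.23). The list had medians of 0.35 and 0.57.

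Kinases and factors that act upstream of Fos, Jun and Egr1 were compared as a list of 20, of which 19 were tested in both lines. In NRK-52E 4 were higher and 7 lower, and in NRK-49F 3 and 5, with medians of -0.17 and 0.16. Map2k1, a kinase of the MAP kinase cascade, rose in both lines (0.57 ± 0.07 and 0.43 ± 0.08), while Map2k2, its close relative, fell in both (-1.20 ± 0.16 and -0.39 ± 0.10). The call of Map2k2 in NRK-49F was lost without N9, N11, N12, N13, N14, N15 or N16 (-0.42 to -0.33), with library totals (-0.34) and in 1 fit of all 16 libraries (-0.39). Mapk3, which encodes ERK1, also fell in both (-1.04 ± 0.16 and -0.84 ± 0.08). Elk3, an ETS factor of the serum response element, fell in NRK-52E from 27.6 ± 1.73 to 9.08 ± 1.64 FPM (-1.63 ± 0.15), in NRK-49F from 104 ± 2.12 to 72.6 ± 3.82 FPM (-0.54 ± 0.08). Mrtfa, the actin-regulated coactivator of serum response factor, fell as well (-1.06 ± 0.13 and -0.86 ± 0.17). Elk1 (0.55 ± 0.11) and Rps6ka5 (0.73 ± 0.13), a kinase of CREB and histone H3, rose in NRK-52E, and the call of Elk1 was lost with library totals (0.34). In NRK-49F Mapk9, which encodes a JUN kinase, rose from 75.9 ± 7.26 to 140 ± 10.1 FPM (0.87 ± 0.09) and Rps6ka3 fell (-0.79 ± 0.15). The interaction was called for Mapk9 (-1.05), Rps6ka3 (1.06), Elk3 (-1.10) and Map2k2 (-0.82), and not for Elk1 (0.38) or Rps6ka5 (0.39).

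Of 28 other immediate early genes, the filter passed 26 in NRK-52E, and 25 passed it in NRK-49F. In NRK-52E 9 were higher and 5 lower, and in NRK-49F 5 and 5, with medians of 0.34 and -0.08. Ccn2, a matricellular gene known as a target of YAP and TGF-beta, fell in both lines, in NRK-52E from 1477 ± 41.0 to 504 ± 18.8 FPM (-1.57 ± 0.08), in NRK-49F from 1314 ± 167 to 71.4 ± 38.9 FPM (-4.21 ± 0.36). Myc, the growth-promoting transcription factor, had 20.9 ± 1.95 and 14.01 ± 2.54 FPM in NRK-52E (-0.60 ± 0.15) but 20.2 ± 0.94 and 77.7 ± 19.2 FPM in NRK-49F (1.93 ± 0.17), so it moved in opposite directions. The call in NRK-52E was lost without N1, N2, N4 or N7 (-0.59 to -0.54). Ifrd1 rose in both (2.33 ± 0.13 and 0.80 ± 0.17), and Ier5 rose by 1.73 ± 0.11 and 0.998 ± 0.11. Plk3, a stress-responsive kinase, rose in NRK-52E (2.20 ± 0.32), where Rhob, a small GTPase of the endosome, fell (-1.14 ± 0.11). Arc was lower there, with means of 1.65 ± 0.32 and 0.596 ± 0.323 FPM (-1.44 ± 0.40), a call lost without N1, N2, N4, N5, N6 or N7 (-1.55 to -1.33) and with the second number as a covariate (-1.47, edgeR FDR 0.0102). In NRK-49F Phlda1 rose (0.98 ± 0.14), while Klf2 (-2.08 ± 0.30), a flow-responsive Krüppel-like factor, and Nfkbiz (-1.22 ± 0.18) fell. The interaction was called for Ccn2 (2.64), Myc (-2.54), Ifrd1 (1.51), Ier5 (0.71), Plk3 (2.06) and Rhob (-1.07), and not for Phlda1 (-0.81), Klf2 (1.39) or Nfkbiz (0.90).

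Genes known as AP-1 targets were compared as a list of 14, of which the NRK-52E fit held 7 and the NRK-49F fit 12. In NRK-52E 3 were higher and 0 lower, and in NRK-49F 4 and 3, with medians of 0.16 and 0.17. Cd44, the hyaluronan receptor, rose in both lines, in NRK-52E from 4.17 ± 0.66 to 18.5 ± 3.5 FPM (2.13 ± 0.19), in NRK-49F from 244 ± 14.4 to 484 ± 39.9 FPM (0.97 ± 0.09). Hmga1 rose in both as given above. The collagenase gene Mmp13 rose in NRK-49F, from 2.48 ± 0.91 to 18.1 ± 14.1 FPM (2.86 ± 0.52), while the gelatinase gene Mmp9 (-1.20 ± 0.15) and Timp1 (-1.11 ± 0.14), an inhibitor of both enzymes, fell. Plaur, the urokinase receptor, rose in NRK-52E (0.69 ± 0.12) and was lower in NRK-49F (-0.32 ± 0.08), where the call was lost without N9, N10, N11, N12, N13 or N15 (-0.33 to -0.30), with library totals (-0.27), without the filter on low counts (-0.30) and in 1 fit of all 16 libraries (-0.32). The interaction was called for Cd44 (1.14), Plaur (0.99) and Timp1 (0.76), and not for Hmga1 (-0.73). That of Timp1 was lost without N2, N3, N5 to N8 or N10 to N15 (0.63 to 0.81), with library totals (0.52) and with DESeq2's size factors (0.75). Mmp9 did not pass the filter in NRK-52E, where it had means of 0.326 and 0.376 FPM, and entered the interaction only through NRK-49F, so nothing is read from its value there.

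Of 10 genes known as EGR1 targets, all 10 were tested in NRK-52E, 9 were tested in NRK-49F, and in each line 4 were higher and 3 lower, with medians of 0.21 and 0.30. Fgf2, a fibroblast growth factor, rose in both lines, from 0.205 ± 0.159 to 1.10 ± 0.17 FPM (2.41 ± 0.46) and from 1.76 ± 0.25 to 5.43 ± 0.77 FPM (1.60 ± 0.21). In NRK-52E this rests on 1 to 9 fragments per library at pH 7.4 and 18 to 27 at pH 6.0, so the size is imprecise. The call there was kept without any single library (2.05 to 2.99), was lost within each second number alone (2.29 and 2.53) and was not tested at a filter of 1 CPM. Pdgfa, a platelet-derived growth factor chain, rose by 0.78 ± 0.09 and 0.82 ± 0.12. Thbs1, which encodes thrombospondin, fell in both lines (-2.10 ± 0.18 and -1.78 ± 0.32). The adhesion molecule gene Icam1 rose in NRK-52E (0.77 ± 0.08) and fell in NRK-49F (-0.57 ± 0.11). Pdgfb fell in NRK-52E (-0.70 ± 0.13), a call lost in 1 fit of all 16 libraries (-0.72), and Tgfb1 fell in NRK-49F (-0.82 ± 0.11). The interaction was called for Icam1 (1.33) and not for Tgfb1 (0.40).

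The mRNAs of this family carry AU-rich elements, and 6 genes for proteins that bind such mRNA were compared, all tested in both lines. In NRK-52E 3 were higher and 2 lower, and in NRK-49F 1 and 1, with medians of 0.25 and 0.06. Zfp36, whose product speeds the decay of AU-rich mRNA, rose in NRK-52E from 31.9 ± 2.25 to 86.0 ± 14.48 FPM (1.41 ± 0.13) and was at 32.0 ± 2.80 and 29.7 ± 2.24 FPM in NRK-49F (-0.12 ± 0.10, edgeR FDR 0.344). Elavl1, which encodes the stabilizing protein HuR, rose in NRK-52E (1.25 ± 0.11), where the decay factor gene Zfp36l2 fell (-0.91 ± 0.12). The interaction was called for Zfp36 (1.5), Elavl1 (0.90) and Zfp36l2 (-1.16). Hnrnpd fell in both lines (-1.15 ± 0.10 and -0.96 ± 0.11). Khsrp was higher in both (0.68 ± 0.16 and 0.59 ± 0.15), a call lost in NRK-52E without N1, N3, N4, N6 or N7 (0.56 to 0.67) and with library totals (0.48), and in NRK-49F without N9, N10, N11, N15 or N16 (0.56 to 0.61).

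**Figure D3:**
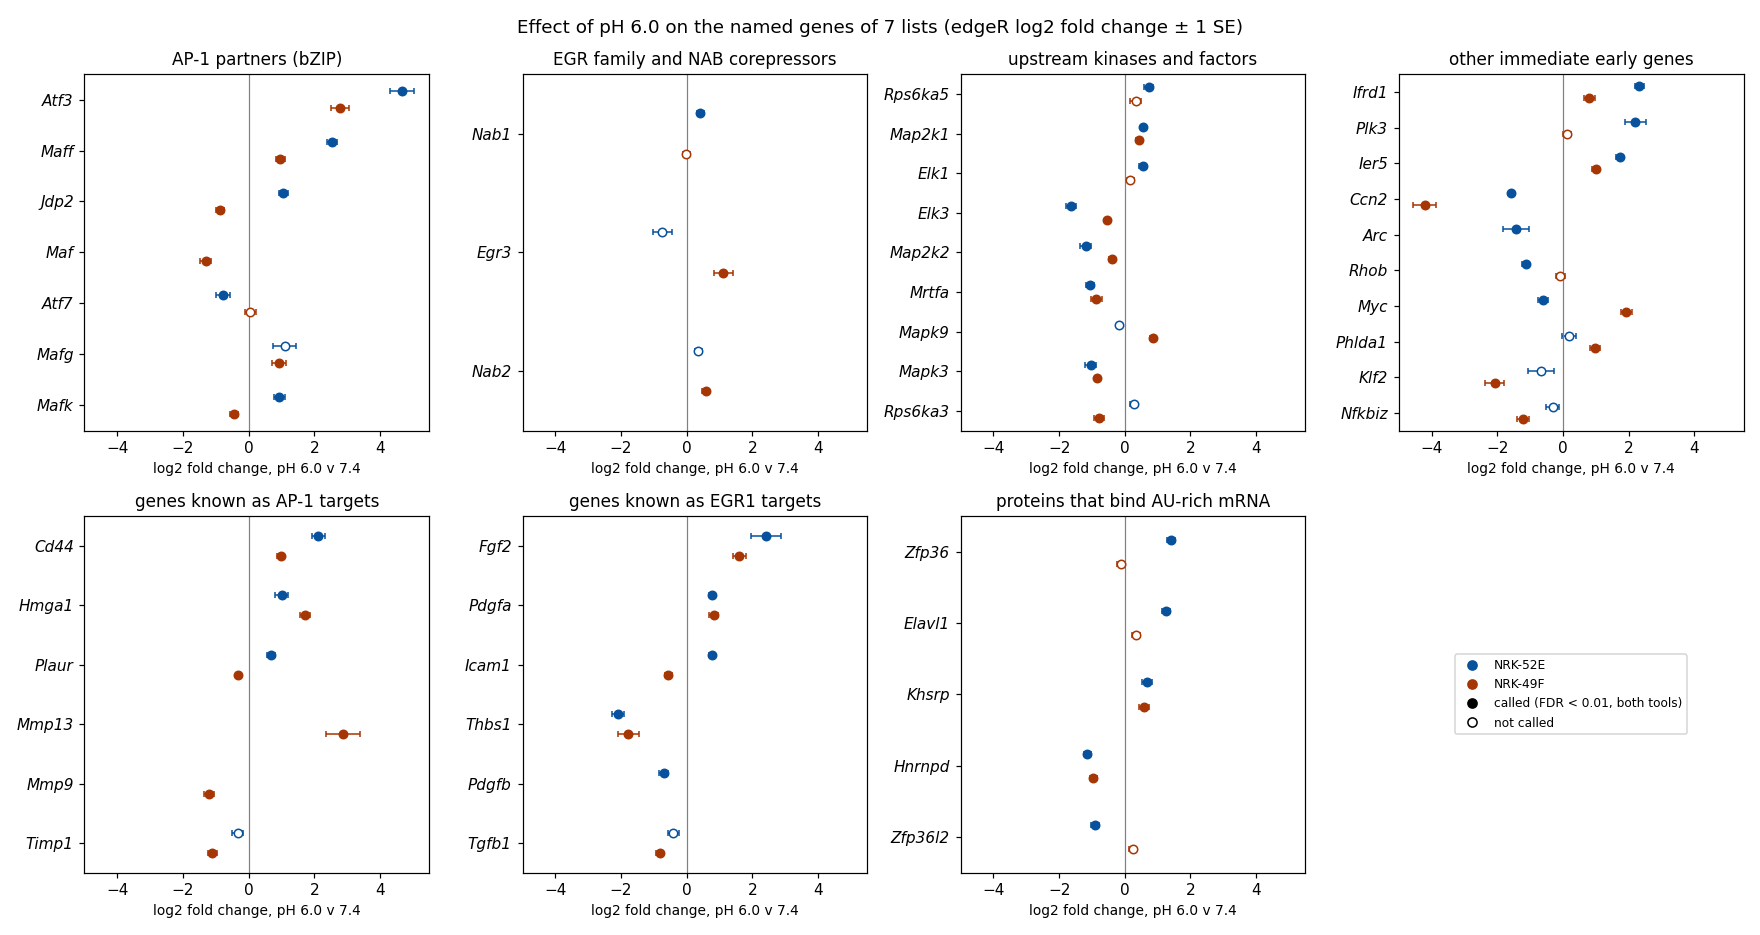
edgeR log2 fold change of pH 6.0 against pH 7.4 (bars of 1 SE, 4 against 4 libraries) for the named genes of the 7 lists in NRK-52E (blue) and NRK-49F (brown). Filled points were called in both tools. Genes that did not pass the filter on low counts in a line, and Maf in NRK-52E, which was at 0 at pH 6.0, have no point there. Ccn2 in NRK-49F lies at -4.21 and Atf3 in NRK-52E at 4.66.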

How the data were processed

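RNA of both cell lines was sequenced as 2 × 150 bp read pairs. The authors deposited raw fragment counts per gene, as whole numbers with no normalization. The submitters' processing notes name HISAT2 2.1.0, featureCounts and the rat genome build rn6, while the methods of the study name tophat2. Multi-mapping fragments were counted, and the use of strand was not stated, so near-identical or antisense genes may share fragments. From the deposited counts, edgeR 4.0.16 (TMM, filterByExpr, quasi-likelihood test) and DESeq2 1.42.0 in R 4.3.3 were run for each pair of groups, 4 against 4 libraries, and the interaction was fitted in edgeR on all 16. A gene was called at an FDR below 0.01 in both tools, and in edgeR alone for the interaction. Exact permutation tests used log2(FPM + 1). The 10 genes and the lists were chosen with earlier results of these data known. Within each list and direction, the 3 called genes with the largest change were named. The scripts were tested on simulated data. Promoters came from RefSeq on GRCr8, a build other than that of the counts. Alternatives were other size factors, library totals, other low-count filters, each tool alone, an FDR of 0.05, 1 fit of all libraries, each library left out, and the second number of the column names as covariate or split. Mrtfb and Mcl1 were not analysed here, and 2 genes that the rule on naming would have included are left out by name.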

Additional observations from a re-analysis of the deposited data

Results flagged for a closer look

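The effect of pH differed between the cell lines, by the interaction in edgeR at an FDR below 0.01, for the genes that follow. Each value is the log2 change at pH 6.0 in NRK-52E minus that in NRK-49F. Among the 10 genes it was called for Fosl1 (-0.995), Fosl2 (-2.09), Jun (-1.12), Junb (-1.16), Jund (1.78), Egr2 (-1.86) and Ier3 (-0.997). Among the named genes of the lists it was positive for Atf3 (1.87), Jdp2 (1.91), Maff (1.56), Mafk (1.39), Rps6ka3 (1.06), Ier5 (0.71), Zfp36 (1.5), Ccn2 (2.64), Ifrd1 (1.51), Plk3 (2.06), Plaur (0.99), Timp1 (0.76), Cd44 (1.14), Icam1 (1.33) and Elavl1 (0.90). It was negative for Maf (-5.95), Egr3 (-1.88), Map2k2 (-0.82), Mapk9 (-1.05), Elk3 (-1.10), Myc (-2.54), Rhob (-1.07) and Zfp36l2 (-1.16). Mmp9 also passed the threshold (1.41), but it was below the filter on low counts in NRK-52E and entered only through NRK-49F. No difference is read from it. With 1 library left out, the call was lost in 12 of the 16 fits for Mmp9 and for Timp1, in 9 for Fosl1, in 2 for Atf3 and in none for the others. It was also lost with library totals for Mmp9 (1.17) and Timp1 (0.52), and with DESeq2's size factors for Timp1 (0.75), so the calls of Timp1 and Fosl1 are weak. The value of Maf rests on a group at 0 and is no measure of size. Of 40 groups of 4 libraries checked for the 10 genes, 0 held a library that the rule used counted as far from the other 3. Chance alone gives about 1 in 20. The count depends on the cut-off of that rule. Jund in N1 (176 FPM) was not counted, beside 141.5, 139.7 and 147.4 FPM in N2, N5 and N6.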

How the results depend on the processing

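Of the values of the 10 genes under the alternatives, 846 kept direction and side of the threshold, 42 lost the call, 15 gained it and 12 changed sign. Within second number 22, 3 of the 10 genes and 2862 genes in all were called in NRK-52E (7 and 7807 with all libraries), and within number 21 2033 genes were called in NRK-49F (5051 with all libraries). Number 21 in NRK-52E gave 5440 genes and number 20 in NRK-49F 5260. These counts are all from edgeR alone. At an FDR below 0.05, 7 of the 10 genes were called in NRK-49F (4 at 0.01). With library totals the sign changed for Ier3 in NRK-52E (-0.0213), Jund (0.0256) and Egr2 (0.30) between the lines at pH 7.4, and the Fosb interaction (-0.10). Within number 21 the Junb change in NRK-49F was 0.0035. With 1 library left out, Egr2 between the lines at pH 7.4 ranged from -0.16 to 0.15, the Fosb interaction from -0.0892 to 0.39 and the Egr1 interaction from -0.34 to 0.0329. None of the values with a changed sign passed the threshold, and the cause was not tested. With library totals, the share of called genes that were positive went from 49.7% to 37.6% in NRK-52E, from 50% to 65.7% between the lines at pH 7.4 and from 52.3% to 33.7% in the interaction. Fos in NRK-49F was not tested in 5 alternatives, namely the filter at 1 CPM, number 20 alone and the fits without N11, N15 or N16. The labels give no shared replicate numbers, so libraries were not paired 1 to 1, and only the second number was used to block them. The low counts of Fos in NRK-49F limit its precision.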
